A study of Oryza sativa with 6 samples.

Results

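The 6 genes described here encode the enzymes that take chlorophyll apart when a rice leaf senesces. They were taken from the 91180 features of the count table by their identifiers. They are SGR (OS09G0532000), NYC1 (OS01G0227100), NOL (OS03G0654600), NYC3 (OS06G0354700), PAO (OS03G0146400) and RCCR1 (OS10G0389200). All 6 were detected in every library, with between 276 and 6755 reads, and all 6 passed the filter on low counts that left 19694 features for testing. Differences are log2 fold changes of OsRUS1-OX over WT with their standard error (SE), and each adjusted p is a Benjamini-Hochberg value from the edgeR quasi-likelihood fit over all of these features, with calls made under 0.05.

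Flag leaves, the last leaves a rice culm forms, were picked at heading at 11 h on a sunny summer day from field-grown plants. The OsRUS1-OX plants were a single ZH-11 line carrying OsRUS1 fused to the fluorescent protein GFP, and their leaves were rolled when picked. The WT plants were untransformed ZH-11 with expanded leaves. Each genotype had 3 libraries, each made from a pool of 3 plants. An empty-vector control was not analysed here, the promoter of the transgene is not given in the sources used here, and genotype, transgene and leaf state cannot be told apart.

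The 3 OsRUS1-OX libraries held between 11918655 and 13532579 counted reads, and the 3 WT libraries between 8759812 and 11744177. OS04G0290800, which the study's gene table describes with vitamin B6 homoeostasis, the process tied to RUS genes, had 244, 131 and 249 FPKM (fragments per kilobase of gene, scaled to the size of the library) in OsRUS1-OX and 2.90, 4.55 and 4.20 FPKM in WT. The groups did not overlap, and OsRUS1-OX replicate 2 was the lowest of its group. That this identifier is OsRUS1 itself was taken from the description alone, so it checks the labels only as far as that holds. The green leaf markers, 3 Rubisco small subunit and 2 light-harvesting genes, summed to between 12203 and 15016 FPKM in OsRUS1-OX and between 9817 and 13107 FPKM in WT. The sum was mostly made of the 2 light-harvesting genes, of which CAB2R was called higher in OsRUS1-OX (log2 fold change 1.03, edgeR adjusted p = 0.0059), while the Rubisco genes RBCS2 (-1.08, edgeR adjusted p = 0.025) and RBCS4 (-1.17, edgeR adjusted p = 0.0073) were called lower. Of 5 flower organ MADS genes, 4 had at most 8 reads in any library. The remaining one, OsMADS16, had 260, 305 and 346 reads in OsRUS1-OX and 89, 142 and 156 reads in WT. It was called higher in OsRUS1-OX (log2 fold change 0.88, edgeR adjusted p = 0.0096). The 5 together summed to between 17.0 and 21.7 FPKM in OsRUS1-OX and between 9.15 and 13.4 FPKM in WT. Their part in the results below was not tested.

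In a green leaf, chlorophyll is bound to proteins of the thylakoid membrane, and free chlorophyll is phototoxic, so its removal follows a fixed route. Chlorophyll b is first reduced towards chlorophyll a by chlorophyll b reductases. The magnesium is then taken out of chlorophyll a, the phytol tail is cut off, and the ring is opened and reduced to colourless products. Rice mutants in several of these genes keep green leaves through senescence, which gave SGR (stay-green) and the NYC genes (non-yellow coloring) their names. The comparison of OsRUS1-OX with WT asks whether transcripts of this route differed between the rolled and the expanded leaves.

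NOL was the only one of the 6 genes called, and it rose 2.47-fold in OsRUS1-OX. NYC1, NYC3, PAO and RCCR1 had positive and SGR a negative log2 fold change, and none of these 5 passed the test. Across all 19694 features, 23.6% were called, 11.8% as higher in OsRUS1-OX. Among the 6 genes 1, or 16.7%, was called, below the share of calls in either direction and above that of calls in its own direction. The count over all features fell to 2524 calls without OsRUS1-OX replicate 2 and to 2399 without OsRUS1-OX replicate 3, against 4644 with all libraries, while the count among the 6 genes was 1 in each of these fits. The median log2 fold change was 0.45 over the 6 genes and -0.010 over all tested features, which is given as a description only. Without OsRUS1-OX replicate 2 the log2 fold change was lower for each of the 6 genes. It was then -0.72 for SGR, -0.025 for NYC1, 0.92 for NOL, 0.13 for NYC3, 0.13 for PAO and 0.40 for RCCR1.

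**Figure D1:**
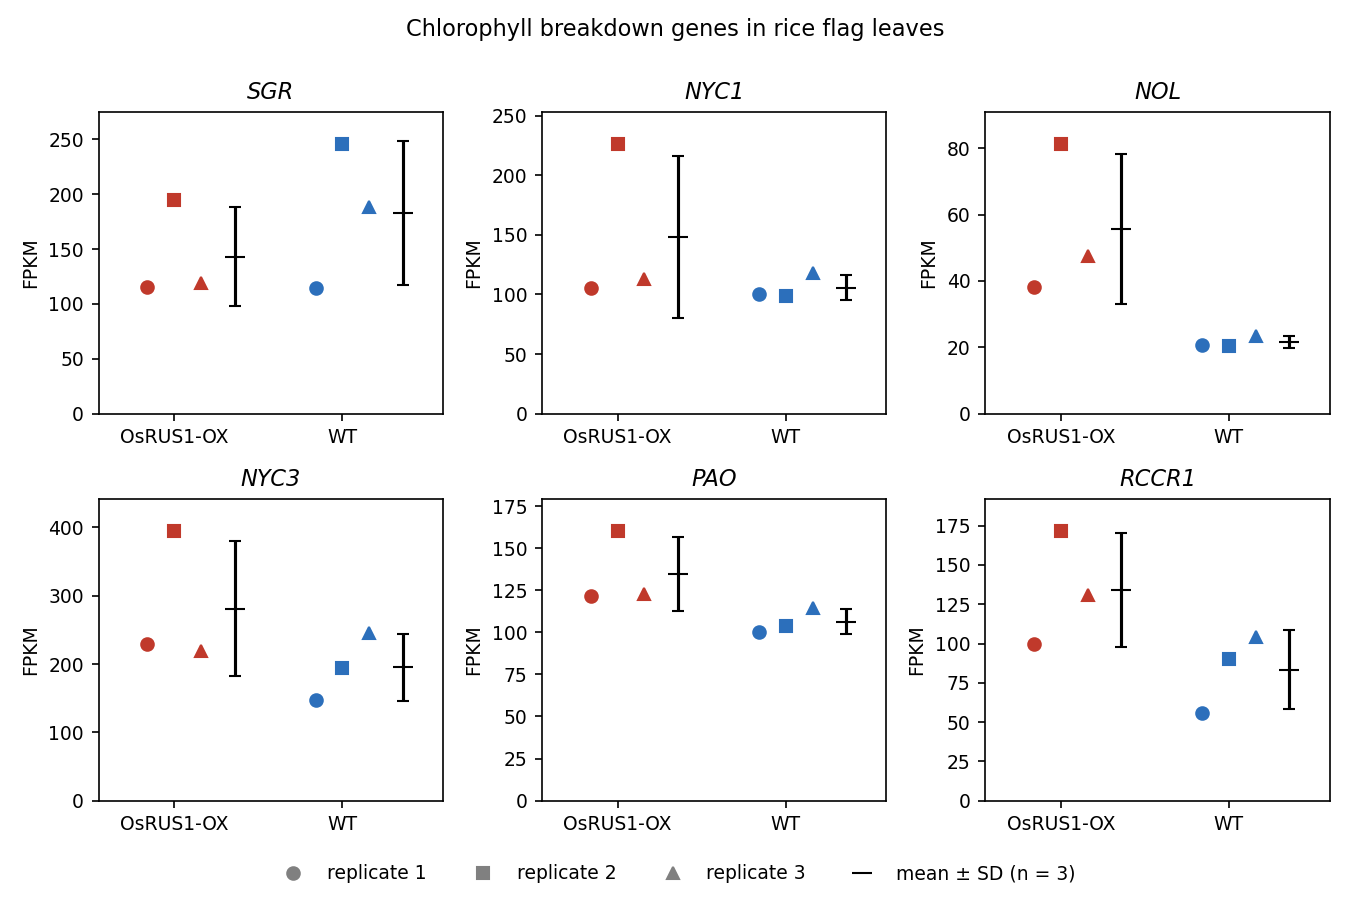
FPKM of the 6 chlorophyll breakdown genes in each library, with OsRUS1-OX in red and WT in blue, a symbol for each replicate number, and the mean ± SD of 3 libraries in black. The 3 OsRUS1-OX values of NOL, between 38.2 and 81.3 FPKM, lie above the 3 WT values, the highest of which is 23.5 FPKM, and the square of OsRUS1-OX replicate 2 is the highest red symbol in all 6 panels.

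NYC1 and NOL encode chlorophyll b reductases, short-chain dehydrogenases that carry out the first reduction of chlorophyll b and are both required for the loss of light-harvesting complexes in senescing rice leaves. NOL had 38.2, 81.3 and 47.6 FPKM in the OsRUS1-OX libraries and 20.8, 20.4 and 23.5 FPKM in the WT libraries. Every OsRUS1-OX library was above every WT library, and the WT libraries lay close together while the OsRUS1-OX libraries did not. The log2 fold change was 1.30 (SE 0.27, 95% interval 0.69 to 1.92, edgeR adjusted p = 0.011). The call held in all 14 alternative fits, and the smallest log2 fold change, 0.92, was found without OsRUS1-OX replicate 2.

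NYC1, the partner of NOL, was not called. It had 105, 226 and 113 FPKM in OsRUS1-OX and 100.2, 98.9 and 118 FPKM in WT. Replicate 2 of OsRUS1-OX stood alone, while replicates 1 and 3 lay within the range of WT. The log2 fold change of 0.42 (SE 0.29, 95% interval -0.24 to 1.08) did not pass the test (edgeR adjusted p = 0.33). Without OsRUS1-OX replicate 2 it was -0.025, so its sign rested on that library. The interval still allows a change between 1.18-fold lower and 2.12-fold higher.

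Since a ratio of 2 genes within a library does not depend on how the libraries are scaled, the balance of the 2 reductases was compared directly. The FPKM of NYC1 was 2.76, 2.78 and 2.38 times that of NOL in the OsRUS1-OX libraries and 4.82, 4.85 and 5.01 times that of NOL in the WT libraries. The ratio was tight within each genotype, also in OsRUS1-OX replicate 2, where both genes were at their highest. On the log2 scale, after addition of 0.01 FPKM, it averaged 1.40 ± 0.13 in OsRUS1-OX and 2.29 ± 0.03 in WT (SD, n = 3 each). The difference of -0.89 was larger than the spread between libraries, and the two-sided exact permutation test gave p = 0.1, the smallest value that 3 libraries against 3 allow. Most of it is the rise of NOL itself, with a log2 fold change of 1.30 against 0.42 for NYC1. The ratio is therefore not a further result.

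**Figure D2:**
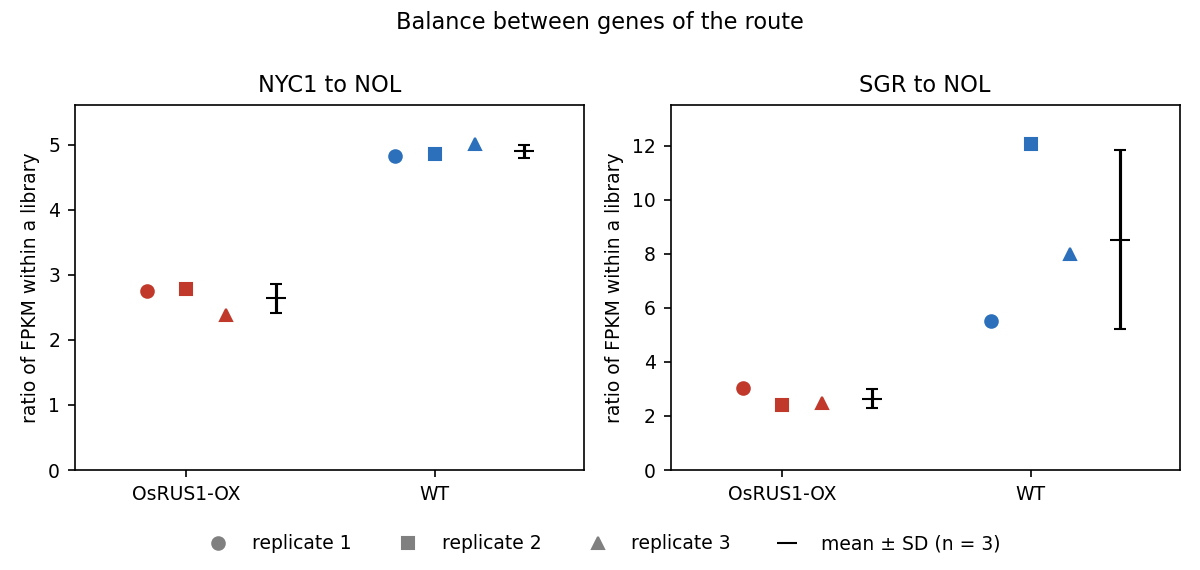
Ratio of FPKM within each library for NYC1 to NOL on the left and SGR to NOL on the right, with OsRUS1-OX in red, WT in blue and the mean ± SD of 3 libraries in black. The OsRUS1-OX ratios of NYC1 to NOL lie between 2.38 and 2.78 and the WT ratios between 4.82 and 5.01, and the ratios of SGR to NOL also do not overlap.

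SGR encodes the protein that removes magnesium from chlorophyll a, and its loss is the classic cause of a stay-green leaf. It had 116, 195 and 119 FPKM in OsRUS1-OX and 114, 246 and 188 FPKM in WT. The groups overlapped, with a single high library in OsRUS1-OX and a single low one in WT. SGR had the widest spread in WT among the 6 genes, with a coefficient of variation of normalized counts of 36.9%. The log2 fold change was -0.42 (SE 0.31, 95% interval -1.13 to 0.29, edgeR adjusted p = 0.37). It moved between -0.72 without OsRUS1-OX replicate 2 and -0.12 without WT replicate 2, and no fit passed the threshold. Relative to NOL, SGR was lower in OsRUS1-OX, at 3.03, 2.40 and 2.50 times the FPKM of NOL against 5.50, 12.1 and 7.99 times in WT. This ratio was chosen after its values were seen and is given without a test.

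NYC3 encodes an alpha/beta hydrolase of the chloroplast, the rice counterpart of the Arabidopsis pheophytinase that cuts the phytol tail from pheophytin. It had 229, 395 and 219 FPKM in OsRUS1-OX and 147, 194 and 245 FPKM in WT. The highest WT library lay above the lowest OsRUS1-OX libraries, so the groups overlapped. The log2 fold change was 0.47 (SE 0.27, 95% interval -0.15 to 1.08, edgeR adjusted p = 0.25). Without OsRUS1-OX replicate 2 it was 0.13.

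PAO encodes pheophorbide a oxygenase, the iron-sulfur enzyme that opens the ring and commits the pigment to degradation. It had 122, 160 and 123 FPKM in OsRUS1-OX and 100.1, 104 and 115 FPKM in WT. All OsRUS1-OX values were above all WT values, in FPKM and in normalized counts. In normalized counts this was the case for 21.2% of all tested features, with 21.3% without overlap in the other direction and 42.4% in either. NOL and PAO were the 2 of the 6 genes without overlap. The difference was small, with a log2 fold change of 0.28 (SE 0.15, 95% interval -0.06 to 0.61), and did not pass the test (edgeR adjusted p = 0.21). The interval puts an upper limit of 1.53-fold on an increase. Without OsRUS1-OX replicate 2 the log2 fold change was 0.13.

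RCCR1 encodes red chlorophyll catabolite reductase, which acts on the product of PAO and keeps this phototoxic compound from accumulating. It had 99.4, 172 and 131 FPKM in OsRUS1-OX and 55.6, 90.0 and 104 FPKM in WT. The lowest OsRUS1-OX library lay just below the highest WT library. With a log2 fold change of 0.62 (SE 0.26, 95% interval 0.024 to 1.22), RCCR1 was the closest of the 5 uncalled genes to the threshold, with edgeR p-values of 0.043 before and 0.12 after adjustment. Without OsRUS1-OX replicate 2 the log2 fold change was 0.40.

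**Figure D3:**
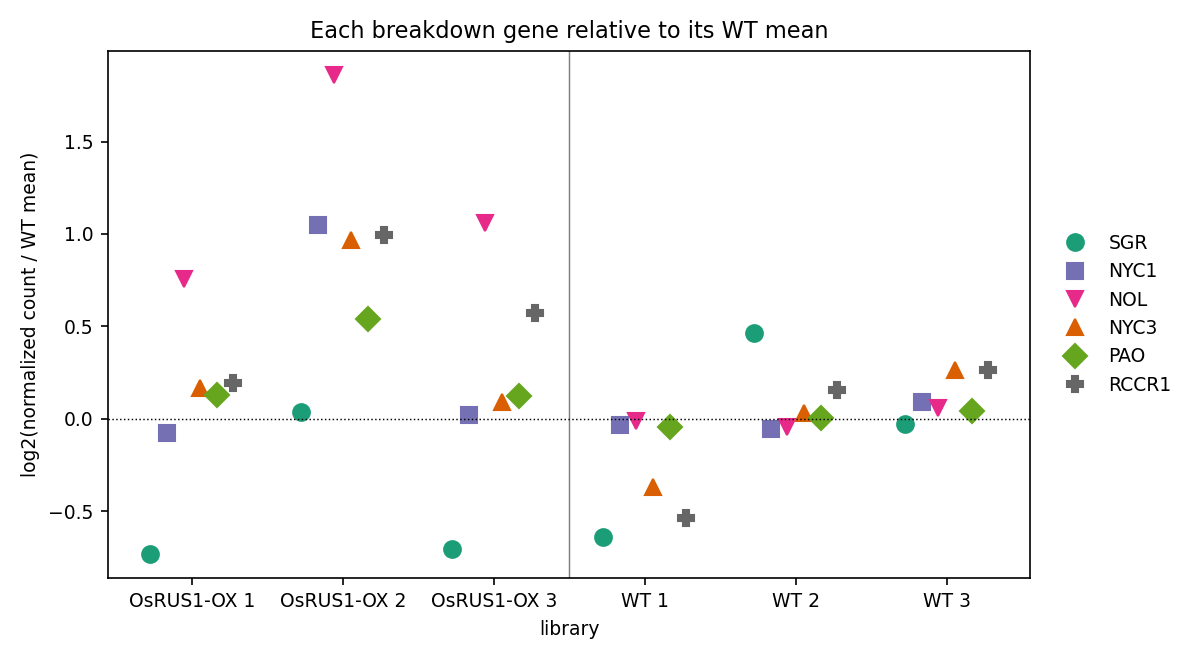
Each of the 6 genes in each library as the log2 of its normalized count over its own WT mean, with OsRUS1-OX on the left and WT on the right. In OsRUS1-OX replicate 2 the values run from 0.039 for SGR to 1.86 for NOL, and in OsRUS1-OX replicates 1 and 3 NYC1 lies at -0.075 and 0.018, next to its WT mean.

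OsRUS1-OX replicate 2 was the highest OsRUS1-OX library for 6 of 6 genes and the highest of all libraries for 5, the exception being SGR. Over all tested features it was the highest OsRUS1-OX library for 36.1% and the highest of all for 21.7%. In normalized counts (counts divided by the scaled library size), replicate 2 exceeded the mean of replicates 1 and 3 by a factor of 2.11 for NYC1, 1.93 for NOL, 1.79 for NYC3, 1.69 for SGR, 1.52 for RCCR1 and 1.33 for PAO. The median of this factor was 1.74 over the 6 genes and 0.99 over all tested features. Among WT leaves, NOL, PAO and NYC1 varied little, with coefficients of variation of 3.59%, 2.99% and 5.54%, which were above those of 3.68%, 2.62% and 8.32% of tested features in WT. In OsRUS1-OX the same coefficients were 41.7%, 17.3% and 46.7%. The other 3 genes varied in both genotypes, with 36.2% in OsRUS1-OX and 21.4% in WT for NYC3, 27.8% in OsRUS1-OX and 27.3% in WT for RCCR1, and 32.4% in OsRUS1-OX and 36.9% in WT for SGR. With 3 libraries per genotype, this difference in spread was not tested.

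Levels of different genes were compared per length, in FPKM. All 6 genes were well expressed in these leaves, with a mean FPKM over the 6 libraries above that of 81.7% of tested features for NOL and of 94.5% or more for the other 5. In OsRUS1-OX the order of the means was NYC3 with 281, NYC1 with 148, SGR with 143, PAO with 135, RCCR1 with 134 and NOL with 55.7 FPKM. In WT it was NYC3 with 195, SGR with 183, PAO with 106, NYC1 with 106, RCCR1 with 83.3 and NOL with 21.6 FPKM. NOL was the lowest member in both genotypes and the only one whose range over the 3 libraries did not overlap that of its neighbour in the order. The ranges of the other neighbours overlapped in both genotypes, although within each of the 3 libraries NYC3 was above NYC1 in OsRUS1-OX, and SGR was above PAO and NYC1 above RCCR1 in WT.

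Summed over the route, the 6 genes had 709, 1230 and 752 FPKM in OsRUS1-OX and 538, 753 and 794 FPKM in WT, so the totals overlapped. The shares of 3 genes did not overlap between the genotypes. In normalized counts, a different measure, 42.4% of all tested features did not overlap in either direction. The shares of a library add up to a fixed total, so they are not independent of each other. NOL contributed 5.38%, 6.61% and 6.33% in OsRUS1-OX and 3.86%, 2.71% and 2.96% in WT. SGR contributed 16.3%, 15.9% and 15.8% in OsRUS1-OX and 21.2%, 32.7% and 23.7% in WT. RCCR1 contributed 14.0%, 14.0% and 17.4% in OsRUS1-OX and 10.3%, 11.95% and 13.2% in WT. The share was higher in OsRUS1-OX for NOL and RCCR1 and lower for SGR, which is a description without a test.

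The log2 profiles of the genes over the 6 libraries, each centred on its own mean, were closest for NYC1 and NYC3, with a root-mean-square distance of 0.19, and farthest for SGR and NOL, with 0.88. Outside the route, the nearest profiles to NOL among 19688 features were those of OS08G0497600 (distance 0.097) and OS05G0163700 (distance 0.12), with log2 fold changes of 1.23 and 1.30, which their choice by likeness to NOL over the same libraries fixes. The nearest to SGR were OS02G0605400 (distance 0.097) and OS12G0604000 (distance 0.12), with log2 fold changes of -0.33 and -0.61, fixed by their choice in the same way. Distances to the nearest features lay between 0.034 and 0.124 for the remaining 4 genes. No function is paired with these identifiers here.

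Other genes that act on chlorophyll or on its breakdown products were taken from a list of 5, of which 2 fell in OsRUS1-OX, none rose and 3 did not pass the test, a share of 40.0% called against 23.6% of all tested features. OS10G0389300, which carries the next identifier after RCCR1 on chromosome 10 and which the study's pathway table places in porphyrin and chlorophyll metabolism, fell 7.88-fold. It had 1.36, 1.16 and 0.86 FPKM in OsRUS1-OX and 7.05, 9.27 and 9.09 FPKM in WT. The log2 fold change was -2.98 (SE 0.21, edgeR adjusted p = 0.00023). The log2 ratio of RCCR1 to OS10G0389300 was 6.87 ± 0.60 in OsRUS1-OX and 3.26 ± 0.27 in WT (SD, n = 3 each), a difference of 3.61 without overlap (two-sided exact permutation test, p = 0.1, the smallest possible). Most of that difference is the fall of OS10G0389300 itself, since RCCR1 had a log2 fold change of 0.62. The ratio is therefore not a further result. OS10G0389300 is given by its identifier only, and how reads shared by overlapping genes were counted is not given in the sources used here.

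The chlorophyllase OS10G0419600, whose Arabidopsis relative CLH2 can remove the phytol tail from chlorophyll directly, fell 2.09-fold. It had 67.9, 57.6 and 68.8 FPKM in OsRUS1-OX and 111, 171 and 103 FPKM in WT, again without overlap, which in normalized counts held for 42.4% of all tested features. The log2 fold change was -1.06 (SE 0.22, edgeR adjusted p = 0.011), and the call held in all 14 alternative fits. The study's list of differentially expressed genes holds both this gene and OS10G0389300, so they are not independent evidence of a direction for the list.

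The 3 other genes did not pass the test. NYC4 (OS07G0558500), the rice THF1 protein of the thylakoid membrane, had 121, 193 and 147 FPKM in OsRUS1-OX and 88.2, 110 and 100.4 FPKM in WT. Its groups did not overlap, which in normalized counts was the case for 42.4% of all tested features. The log2 fold change of NYC4 was 0.56 (SE 0.19, edgeR adjusted p = 0.068). It passed the threshold in 5 of 14 alternative fits, among them the fit without OsRUS1-OX replicate 1 and DESeq2. Without OsRUS1-OX replicate 2, its highest library, it was 0.36 (edgeR adjusted p = 0.21). HCAR (OS04G0320100), which completes the conversion of chlorophyll b to chlorophyll a after NYC1 and NOL, had 218, 215 and 231 FPKM in OsRUS1-OX and 224, 263 and 236 FPKM in WT (log2 fold change -0.20, 95% interval -0.49 to 0.10, edgeR adjusted p = 0.31). SGRL (OS04G0692600), the stay-green-like relative of SGR, had 84.7, 75.1 and 85.7 FPKM in OsRUS1-OX and 87.8, 99.7 and 81.9 FPKM in WT (log2 fold change -0.21, 95% interval -0.52 to 0.10, edgeR adjusted p = 0.30).

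**Figure D4:**
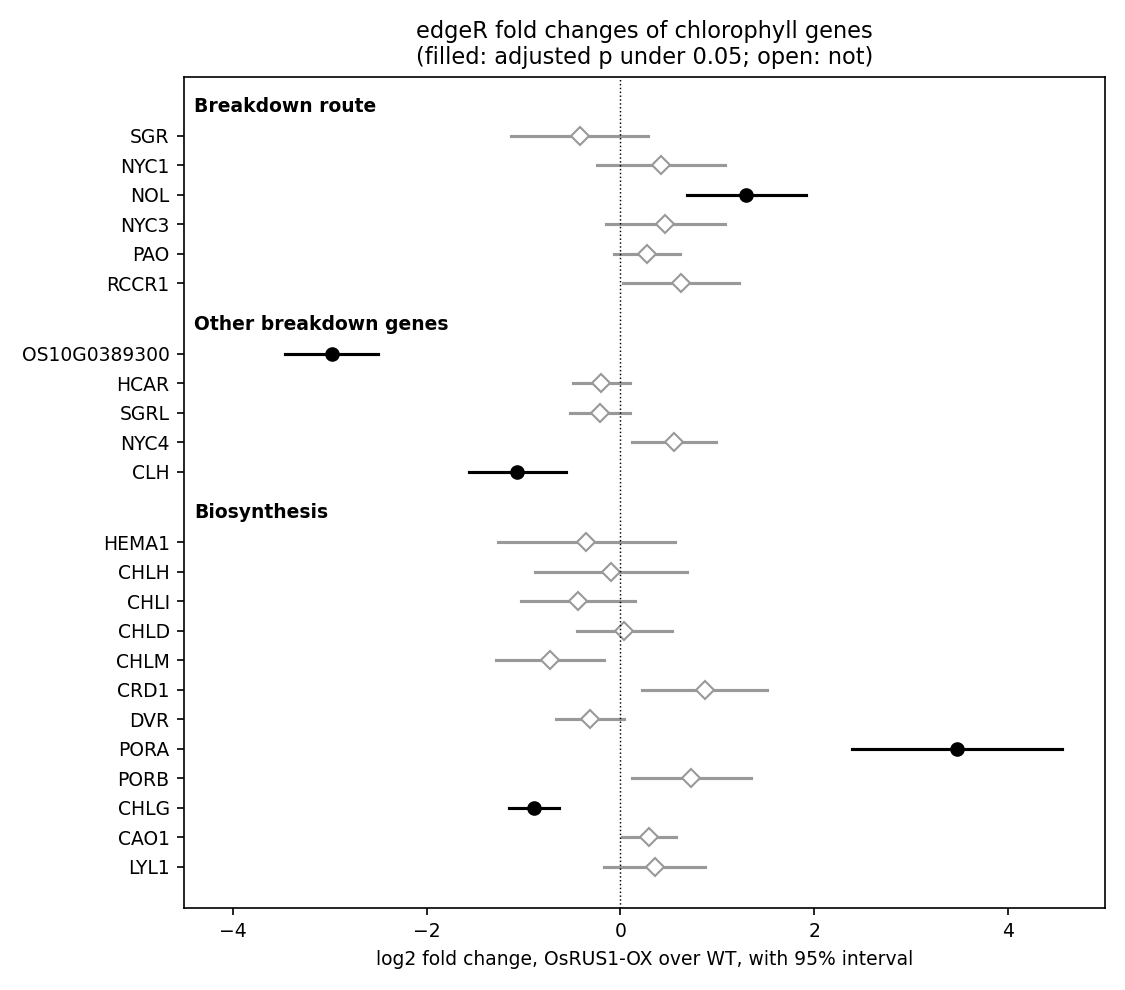
Log2 fold changes of OsRUS1-OX over WT with their 95% intervals for the 6 breakdown genes, 5 other breakdown genes and 12 tested biosynthesis genes, filled where the adjusted p from edgeR was under 0.05. NOL and PORA are filled to the right of zero, and OS10G0389300, the chlorophyllase (CLH) and CHLG to the left.

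For the opposite direction of the pathway, 13 chlorophyll biosynthesis genes were counted, of which 12 were tested, 1 rose and 1 fell, a share of 16.7% called against 23.6% of all tested features. PORA (OS04G0678700), a light-dependent protochlorophyllide reductase, had 25.7, 8.91 and 16.8 FPKM in OsRUS1-OX and 2.14, 1.42 and 0.87 FPKM in WT, with a log2 fold change of 3.48 (SE 0.47, edgeR adjusted p = 0.0022). CHLG (OS05G0349700), the chlorophyll synthase that adds the phytol tail, had 41.6, 36.4 and 36.4 FPKM in OsRUS1-OX and 69.5, 65.6 and 67.2 FPKM in WT, with a log2 fold change of -0.89 (SE 0.11, edgeR adjusted p = 0.0017). OsRUS1-OX replicate 2, the highest OsRUS1-OX library for the 6 breakdown genes, was the lowest of its group for PORA. Of the 12 tested biosynthesis genes, only CAO1 had its highest OsRUS1-OX value in that library. The count of 2 called genes was 6 in DESeq2, which added CRD1, PORB, CHLM and CAO1. The study's own list of differentially expressed genes includes PORA, CHLG and CRD1.

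CAO1 (OS10G0567400), chlorophyllide a oxygenase, makes chlorophyll b and so supplies the substrate of NYC1 and NOL. It had 299, 305 and 305 FPKM in OsRUS1-OX and 230, 242 and 233 FPKM in WT. The groups did not overlap and both were tight, but the log2 fold change of 0.30 (SE 0.12) did not pass edgeR's test (adjusted p = 0.11). In normalized counts, groups did not overlap for 5 of the 12 tested biosynthesis genes and for 42.4% of all tested features. The threshold was passed in 3 of 14 alternative fits, DESeq2 and the limma fits on FPKM.

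Among 7 regulators of breakdown and senescence-associated genes, 5 were tested, 3 rose and none fell, against 11.8% of all tested features called in each direction. OsNAP (OS03G0327800), a NAC transcription factor that promotes leaf senescence and activates chlorophyll breakdown genes in rice, had 84.5, 111 and 104 FPKM in OsRUS1-OX and 45.9, 81.6 and 96.0 FPKM in WT and did not pass the test (log2 fold change 0.36, 95% interval -0.20 to 0.92, edgeR adjusted p = 0.33). The NAC factor OsNAC2 (OS04G0460600) had 11.5, 12.9 and 11.2 FPKM in OsRUS1-OX and 4.96, 2.66 and 1.88 FPKM in WT, with a log2 rise of 1.84 (SE 0.33, edgeR adjusted p = 0.0071). ONAC106 (OS08G0433500), a NAC factor known to delay leaf senescence in rice, had 20.7, 71.0 and 38.0 FPKM in OsRUS1-OX and 9.97, 6.76 and 16.4 FPKM in WT. It rose by a log2 fold change of 1.91 (SE 0.47, edgeR adjusted p = 0.022), and the call was lost without OsRUS1-OX replicate 2 (adjusted p = 0.059), OsRUS1-OX replicate 3 (0.052), WT replicate 1 (0.069) or WT replicate 2 (0.060). The ethylene signalling factor OsEIL1 (OS03G0324300) averaged 39.9 ± 0.92 FPKM in OsRUS1-OX and 39.2 ± 13.9 FPKM in WT (SD, n = 3 each) and was not called (edgeR adjusted p = 0.90). OsRUS1-OX replicate 2 was the highest library for OsNAP, OsNAC2 and ONAC106, but not for OsEIL1.

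Osl85 (OS07G0529000), the glyoxylate cycle enzyme isocitrate lyase and a marker of senescing leaves, had 24.0, 201 and 32.5 FPKM in OsRUS1-OX and 0, 0.49 and 0.49 FPKM in WT. It rose by a log2 fold change of 7.87 (SE 1.18, edgeR adjusted p = 0.0032), and OsRUS1-OX replicate 2 was again the highest library. Without that library the log2 fold change was 6.26. In raw counts these were 670, 5010 and 920 reads in OsRUS1-OX and 0, 12 and 11 reads in WT. The remaining pair stayed below the filter on low counts. Osh36 (OS05G0475400), another senescence-associated gene, had 10, 22 and 5 reads in OsRUS1-OX and 0, 1 and 1 reads in WT, a ratio of 14.9 (95% counting interval 3.85 to 128). OsABI5 (OS01G0859300), a bZIP factor of abscisic acid signalling, had 3, 13 and 12 reads in OsRUS1-OX and none in WT, which is at least 7.53-fold higher when set against 3 reads over the WT group. These intervals and bounds cover counting error only. In whole leaves, fewer cells of a type and less RNA per cell cannot be told apart for any of these genes.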

How the data were processed

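RNA from flag leaves was sequenced for 3 OsRUS1-OX and 3 WT pools. The authors aligned filtered read pairs to a rice genome from Ensembl Plants (TopHat2 2.0.12) and deposited raw counts per gene from HTSeq 0.6.1. A matching table of FPKM was deposited too, derived by the authors from counts, library totals and gene length. Whether counting used strand, and how it treated overlapping genes, is not given in the sources used here.

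The main test was the quasi-likelihood test of edgeR 4.0.16 (R 4.3.3), with TMM scaling, the default filter by genotype and Benjamini-Hochberg adjustment over 19694 features at 0.05. It was tested on simulated data, where its share of false calls lay above the threshold. Standard errors come from the F statistic. For normalized counts, each library was divided by its TMM-scaled size and brought to the mean size. Alternatives were DESeq2 1.42.0, limma 3.58.1 with 1 or 0.1 added to FPKM before taking log2, other scalings and filters, a replicate block, and fits without each library. The pools were collected separately, so p-values measure the spread between pools. Replicates differed by more than sampling noise, with chi-square values per degree of freedom of 8.55 to 27.9.

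The members and lists were chosen with earlier results of these data known. Named are the 6 genes, all other listed breakdown genes, called genes of the remaining lists and the nearest profiles to NOL and SGR. HEMA1, CHLH and CHLD are named only for their change of sign between fits. CAO1, CRD1, PORB, CHLM, OsNAP, OsEIL1, Osh36, OsABI5 and OsMADS16 were added after their values were seen. The RefSeq gene table could not be matched to these identifiers, so coordinates, sequences and promoter motifs were not used here.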

Additional observations from a re-analysis of the deposited data

How the results depend on the processing

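NOL kept its direction and its call in all 14 alternative fits, with log2 fold changes between 0.92 and 1.54. SGR, NYC3 and PAO kept their direction and stayed uncalled in all 14. NYC1 stayed uncalled but ranged from -0.025 to 0.64 when 1 library was left out, the reversal being the fit without OsRUS1-OX replicate 2. With the replicate number as a block, RCCR1 passed the threshold (log2 fold change 0.63, edgeR adjusted p = 0.033, with a range of 0.033 to 0.37 over the 14 alternatives), so 2 of the 6 genes were called, and biosynthesis genes had 5 calls. The correlations of same-numbered deviations from the genotype means were 0.13, -0.09 and 0.11, so the numbers were not taken as pairs, and not every sample correlated best with its own number. The block gave 4013 calls over all features.

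Calls over all tested features ranged from 2399 to 5219 when 1 library was left out. The 2 calls among biosynthesis genes became 4 with library totals alone, 6 in DESeq2, 5 without a filter, 4 in each limma fit and 2 to 4 with 1 library left out. The 3 calls among regulators became 5 in DESeq2 and 5 without a filter, where OsABI5 and Osh36 were tested, 2 with at least 10 counts in every library and 2 to 4 with 1 library left out (2 without OsRUS1-OX replicate 2 or 3, or WT replicate 1 or 2). Uncalled genes near 0 changed sign: CHLH to 0.11 in each limma fit and 0.038 with the block, and OsEIL1 to 0.026 with library totals, 0.080 and 0.083 in the limma fits and 0.013 with the block. With 1 library left out, HEMA1 ranged from -0.69 to 0.079, CHLH from -0.37 to 0.43, CHLD from -0.14 to 0.28 and OsEIL1 from -0.23 to 0.30. Both tested ratios kept their direction in all 8 alternatives. Library totals in place of TMM gave 2678 higher and 1879 lower calls, against 2328 and 2316.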
